A study of Mus musculus with 24 samples.

Results

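Mature neutrophil genes were followed in the bone marrow of mice that had flown in space and of ground controls. The set was chosen by name and holds 10 genes, S100a8, S100a9, Cxcr2, Csf3r, Retnlg, Ccl6, Mxd1, Fpr1, Fpr2 and Trem1, of the 54752 genes in the deposited table. All 10 had more than 1 TPM in at least 1 library and were among the 12373 genes tested. TPM is a level per transcript length, relative to all other RNA in the library. The groups were male wild-type and Nrf2-KO mice, in which the gene of the transcription factor Nrf2 is knocked out, either kept on the ground (GC-WT and GC-KO mice) or flown (FL-WT and FL-KO mice). Each group had 6 mice and each mouse 1 library, made from cryopreserved marrow cells. All mice lived in single cages. The flown mice were 8 weeks old when moved to the launch site, 3 weeks before launch, and stayed in space for 31 days. Marrow was taken after landing, so that the stay in space, launch and landing cannot be told apart. The paper states that flown and ground mice could not be sampled at 1 site. Place and handling at sampling therefore cannot be told apart from flight either.

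Neutrophils are made in the marrow from promyelocytes, which fill primary granules, and from later stages that fill secondary granules. In the last steps they switch on receptors for chemokines and for formylated bacterial peptides, and large amounts of the calcium-binding proteins S100A8 and S100A9. CXCR4 holds them in the marrow through its ligand CXCL12, while CXCR2 draws them to the blood. In whole marrow, fewer cells of a type and less RNA per cell cannot be told apart. Monocytes also use some of these genes, among them Csf3r, Fpr1, Fpr2, Trem1 and S100a8.

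The libraries differed in ways that touch every level given here. Nfe2l2, the gene of Nrf2, was at 21.3 ± 3.19 TPM in GC-WT mice and 18.6 ± 5.93 in FL-WT mice (SD, n = 6), and at 4.97 ± 1.25 and 3.06 ± 0.794 TPM in GC-KO and FL-KO mice, with every Nrf2-KO mouse below every wild-type mouse. The table gives no read counts and the depth of each library is unknown. Rn7sk, Rmrp, Rpph1, Rn7s1 and Rn7s2, the 5 small RNAs below, together took 35.4% to 59.6% of TPM. The comparisons were flight against ground in wild-type mice (FL-WT vs. GC-WT), written here as flight in wild-type mice, and the same in Nrf2-KO mice (FL-KO vs. GC-KO). Nrf2-KO were set against wild-type mice on the ground (GC-KO vs. GC-WT), written here as Nrf2 loss on the ground, and in flight (FL-KO vs. FL-WT). The typical tested gene had a log2 fold change of -0.24 and -0.29 with flight in wild-type and Nrf2-KO mice, and of -0.22 and -0.25 with Nrf2 loss on the ground and in flight. Median-of-ratios scaling, which sets the typical gene equal between libraries, brought these medians to between -0.04 and 0.02, and its size factors ran from 0.633 in FL-KO to 1.42 in GC-WT mice. Some changes of the neutrophil genes are therefore also set against this shift of the typical gene. FL-WT mice 5 and 6 were low, and GC-KO mice 11 and 12 high, in several of the genes below, and results were also computed without them (these mice were picked once their values were known).

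The upstream sequences of 5 of the genes are shown because these 5 span the range of responses, from genes that were higher with flight in wild-type mice (S100a8, S100a9 and Retnlg) to those that were lower without Nrf2 (Mxd1 and Csf3r). RefSeq promoters on GRCm38.p6 matched all 10 genes. Each window has 300 bases, 250 before and 50 from the start of the transcript, 5′ to 3′ on the strand of the gene, with motif matches in capitals. The windows are chr3:90668821-90669120 (plus strand), chr3:90695672-90695971 (minus strand), chr16:48872358-48872657 (plus strand), chr6:86669110-86669409 (minus strand) and chr4:126024409-126024708 (plus strand).
S100a8: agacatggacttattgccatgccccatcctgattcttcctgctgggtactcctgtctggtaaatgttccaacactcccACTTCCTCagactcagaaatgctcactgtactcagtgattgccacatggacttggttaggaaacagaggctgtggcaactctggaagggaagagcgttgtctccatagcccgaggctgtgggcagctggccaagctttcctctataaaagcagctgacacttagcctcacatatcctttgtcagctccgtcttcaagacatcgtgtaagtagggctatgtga
S100a9: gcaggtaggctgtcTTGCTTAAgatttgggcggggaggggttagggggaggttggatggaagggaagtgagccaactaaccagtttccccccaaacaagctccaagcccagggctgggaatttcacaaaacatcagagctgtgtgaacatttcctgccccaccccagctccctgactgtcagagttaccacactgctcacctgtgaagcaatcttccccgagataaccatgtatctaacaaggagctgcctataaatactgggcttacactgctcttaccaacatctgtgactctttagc
Retnlg: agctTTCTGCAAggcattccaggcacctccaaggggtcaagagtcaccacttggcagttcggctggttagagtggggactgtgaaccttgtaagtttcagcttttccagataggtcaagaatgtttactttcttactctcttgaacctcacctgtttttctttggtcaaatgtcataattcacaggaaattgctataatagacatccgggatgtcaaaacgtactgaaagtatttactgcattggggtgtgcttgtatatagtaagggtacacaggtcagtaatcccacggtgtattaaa
Mxd1: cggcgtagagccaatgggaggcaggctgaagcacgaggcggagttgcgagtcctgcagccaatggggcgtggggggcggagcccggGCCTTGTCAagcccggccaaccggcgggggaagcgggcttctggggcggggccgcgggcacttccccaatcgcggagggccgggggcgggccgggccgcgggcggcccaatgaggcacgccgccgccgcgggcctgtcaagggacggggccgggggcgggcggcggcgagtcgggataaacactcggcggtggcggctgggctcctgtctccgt
Csf3r: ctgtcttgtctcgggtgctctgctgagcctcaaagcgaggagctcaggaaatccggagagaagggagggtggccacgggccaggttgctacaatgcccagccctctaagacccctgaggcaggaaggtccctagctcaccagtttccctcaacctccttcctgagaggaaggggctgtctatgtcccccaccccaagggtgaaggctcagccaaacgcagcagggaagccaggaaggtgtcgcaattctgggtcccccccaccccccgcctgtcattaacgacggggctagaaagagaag

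3 motifs were searched on both strands of these windows. The C/EBP motif, TTGCNNAA, for factors that drive granulocyte genes, was in the windows of Retnlg (first base at -246 from the start, minus strand) and S100a9 (-236), and in 10.8% of all 32851 RefSeq windows. The PU.1 motif, GAGGAAGT, was in that of S100a8 (-172, minus strand) and in 3.2% of all windows. The antioxidant response element, TGACNNNGC, which Nrf2 binds with a small Maf protein, was in the window of Mxd1 (-164, minus strand) and in 12.4% of all windows. The Csf3r window held none of the 3, as did those of Cxcr2, Ccl6, Fpr1, Fpr2 and Trem1. These are matches of letters and were not tested for binding.

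The genes spanned more than 3 orders of magnitude in level. Over the 24 libraries, S100a9 was at a mean of 21961 TPM and S100a8 at 20300 TPM, ranks 8 and 9 of all genes. Retnlg followed at 1915 TPM and Ccl6 at 160.6 TPM. The receptors Fpr2, Cxcr2, Fpr1 and Csf3r were at 79.4, 41.5, 34.8 and 34.7 TPM, the transcription factor gene Mxd1 at 50.1 TPM, and Trem1 at 9.59 TPM. The spread between mice of a group, as SD over mean, ran from 9.41% for Cxcr2 in GC-WT mice to 43.9% for Csf3r in GC-KO mice. The plot of TPM by mouse shows the value of each gene in each library.

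**Figure D1:**
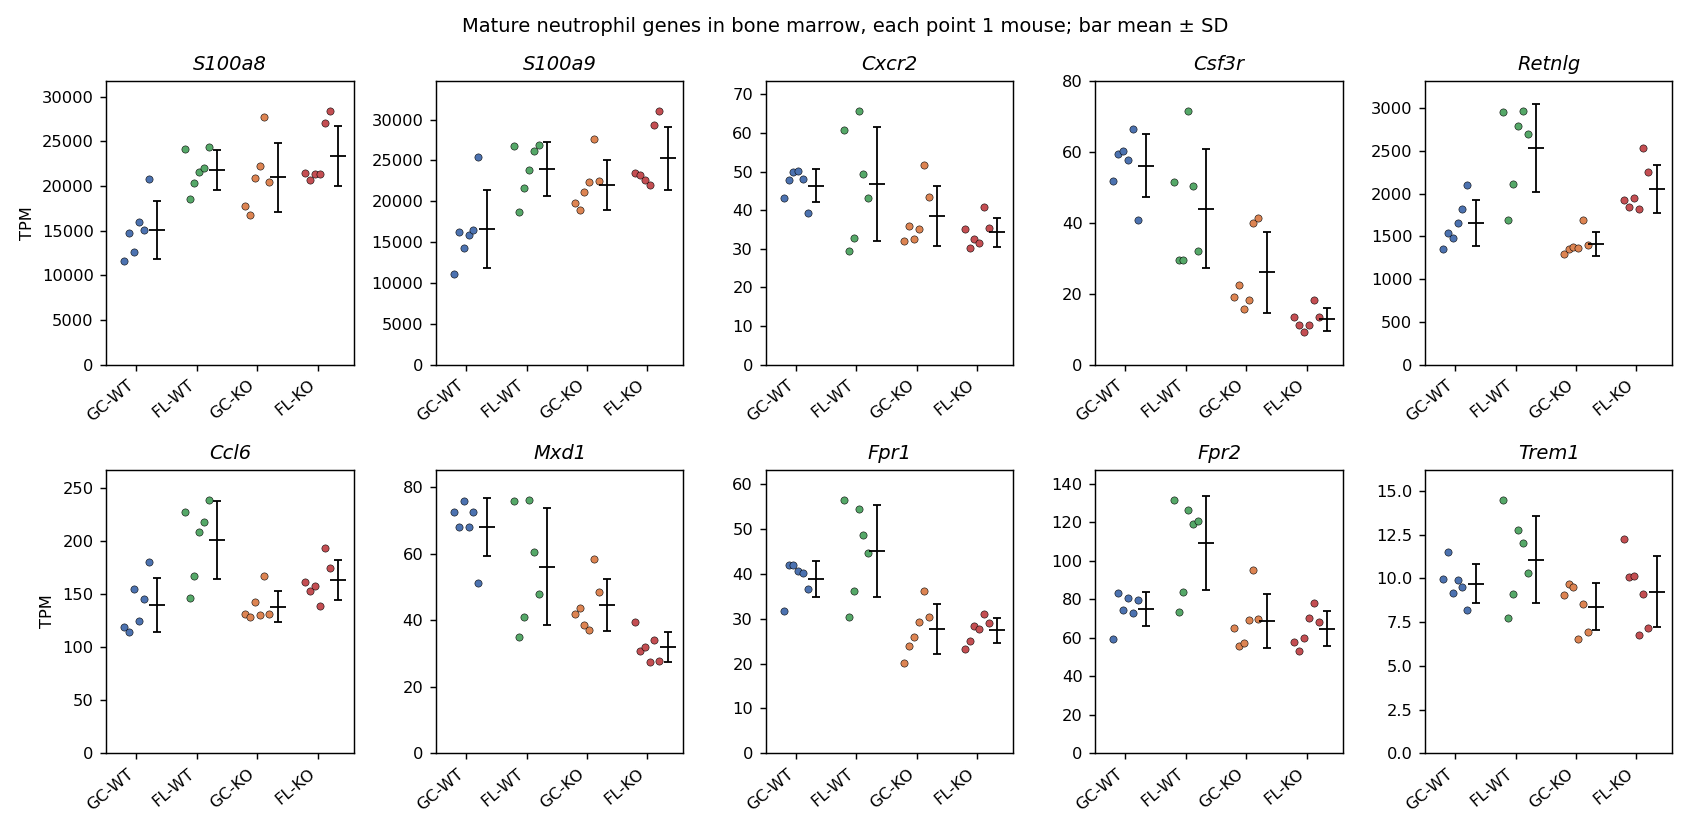
TPM of the 10 genes (y axis, linear from 0) in the 6 mice of each of the 4 groups (x axis), with the mean and SD beside the points. Csf3r and Mxd1 step down from GC-WT to FL-KO mice, while S100a8 and S100a9 are lowest in GC-WT mice and Retnlg is higher in flight within each genotype.

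Levels were compared on the log2(TPM + 1) scale in 1 limma fit of the 24 libraries. A gene was called when its Benjamini-Hochberg adjusted p was under 0.1 and its fold change at least 2, as for the DEGs of the study. Adding 1 understates the change of genes at a few TPM. By this rule 1 of the 10 genes, Csf3r, was called, lower with Nrf2 loss on the ground and with Nrf2 loss in flight. Of all tested genes, 3.04% and 8.36% were called lower in these comparisons. In flight against ground, 0 of the 10 were called in either genotype, against 0.938% of all genes lower and 0.0647% higher with flight in wild-type mice, and 2.13% lower and 0% higher with flight in Nrf2-KO mice. At an unadjusted p under 0.05, 5 of the 10 were higher and 0 lower with flight in wild-type mice, and 1 was higher and 2 were lower with flight in Nrf2-KO mice. With Nrf2-KO against wild-type mice, 0 of the 10 were called higher. At an unadjusted p under 0.05, 2 were higher and 3 lower with Nrf2 loss on the ground, and 0 higher and 7 lower with Nrf2 loss in flight. The same genes passed an adjusted p under 0.1 with no minimum fold, which is the rule for the smaller differences below. By that rule, 0.994% of all genes were higher with flight in wild-type mice and 0.299% with flight in Nrf2-KO mice, while 39% and 53.1% were lower. With Nrf2 loss on the ground and in flight 3.13% and 1.91% of all genes were higher, and 42.9% and 47.2% lower. Called higher by both thresholds were 0.129% and 0.097%. Shares of all genes at an unadjusted p under 0.05 were not computed. On TPM as deposited 1 gene, Csf3r, was lower in every FL-KO than in every FL-WT mouse, as were 20.6% of all genes. Among the 10 no other gene was lower without overlap, beside 4.19% and 18.4% of all genes with flight in wild-type and Nrf2-KO mice and 9.15% with Nrf2 loss on the ground. With flight in wild-type mice 0.097% of all genes were higher without overlap and 0 of the 10.

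**Figure D2:**
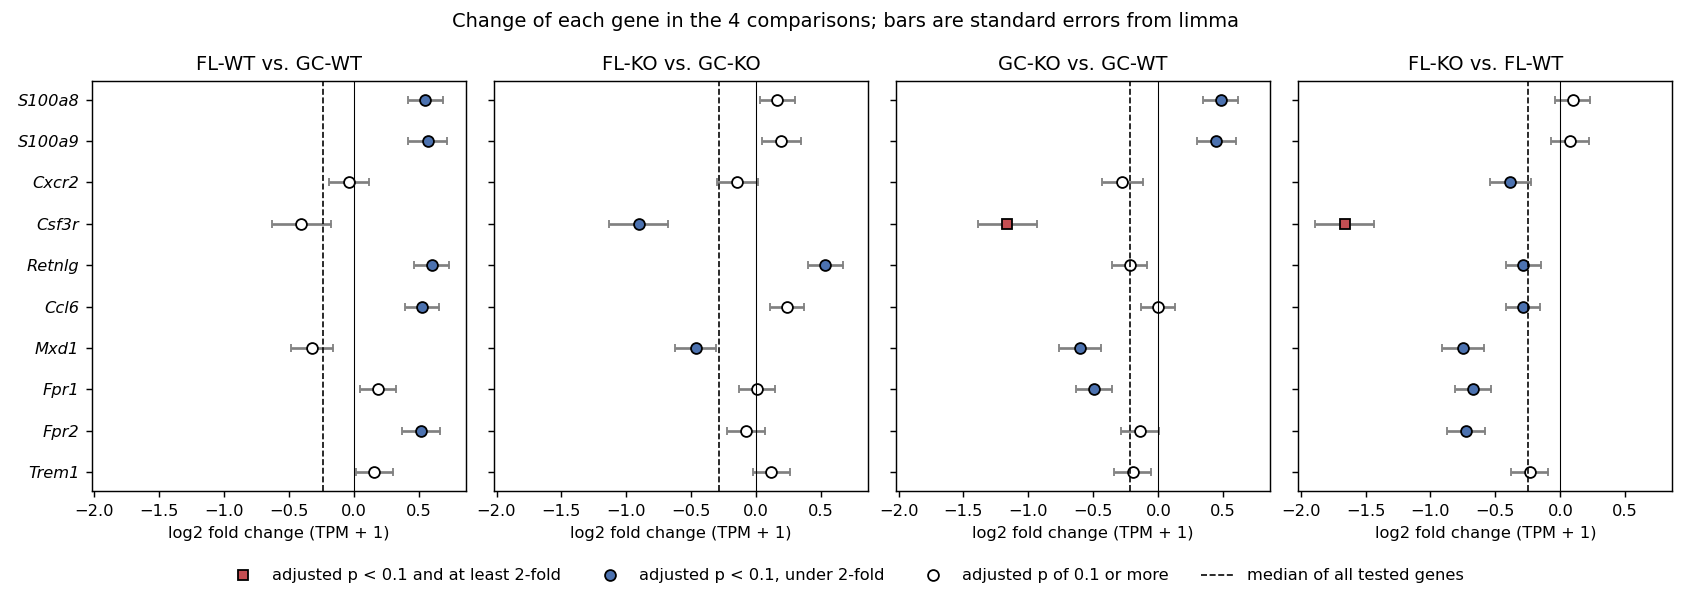
Log2 fold change of log2(TPM + 1) for each gene (x axis) in the 4 comparisons, with standard errors from limma and the median of all tested genes as a dashed line. Csf3r is the single gene past both thresholds, at -1.16 and -1.66 in the comparisons of Nrf2-KO with wild-type mice, and 5 genes lie between 0.51 and 0.60 in FL-WT vs. GC-WT.

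S100a8 and S100a9 encode the subunits of calprotectin, which binds calcium and zinc and makes up much of the protein of the neutrophil cytosol. Both were lower in GC-WT mice than in any other group. S100a8 (ENSMUSG00000056054.9, chr3:90668978-90670035) ran from 11541 to 20819 TPM with a median of 14885 in GC-WT mice and from 18498 to 24332 with a median of 21741 in FL-WT mice. It ran from 16758 to 27686 TPM with a median of 20648 in GC-KO mice and from 20675 to 28336 with a median of 21357 in FL-KO mice. 5 of the 6 GC-WT mice lay below all mice of the 3 other groups, and GC-WT mouse 10, at 20819 TPM, lay within them. With flight in wild-type mice the difference was 0.55 on the log2 scale (SE 0.14, adjusted p = 0.00503) and with Nrf2 loss on the ground it was 0.48 (SE 0.14, adjusted p = 0.00675). Neither passed with quantile normalization, where they were 0.02 (adjusted p = 0.921) and -0.07 (adjusted p = 0.568). That setting gives every library the same set of values, so it can hide changes of genes ranked this high. With median-of-ratios scaling they were 0.85 (adjusted p = 9.49e-05) and 0.80 (adjusted p = 0.00024). With trends in GC content and length removed they were 0.63 (adjusted p = 9.21e-05) and 0.33 (adjusted p = 0.00907). Between flown and ground Nrf2-KO mice S100a8 differed by 0.16 (SE 0.14, adjusted p = 0.316), and with Nrf2 loss in flight it was 0.09 (SE 0.14, adjusted p = 0.628). The interaction of flight and genotype was -0.39 (SE 0.19, adjusted p = 1, limma).

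S100a9 (ENSMUSG00000056071.12, chr3:90692632-90695721) lies 22596 bp from S100a8 on the opposite strand and had a nearly equal level in each library. It ran from 11072 to 25478 TPM with a median of 16067 in GC-WT mice and from 18636 to 26917 with a median of 24962 in FL-WT mice. GC-KO mice had 18877 to 27597 TPM with a median of 21755, and FL-KO mice 21956 to 31007 with a median of 23361. Again 5 GC-WT mice lay below every mouse of the other groups and mouse 10, at 25478 TPM, lay within them. The differences were 0.57 with flight in wild-type mice (SE 0.15, adjusted p = 0.00768), 0.45 with Nrf2 loss on the ground (SE 0.15, adjusted p = 0.019) and 0.19 with flight in Nrf2-KO mice (SE 0.15, adjusted p = 0.279). The first 2 did not pass with quantile normalization, at 0.25 (adjusted p = 0.148) and 0.04 (adjusted p = 0.809), a setting that can hide changes at this rank. With median-of-ratios scaling they were 0.87 (adjusted p = 0.000121) and 0.77 (adjusted p = 0.000309). With trends in GC content and length removed they were 0.65 (adjusted p = 0.000181) and 0.32 (adjusted p = 0.0197). Together the pair took 3.17% ± 0.799 of TPM in GC-WT mice, 4.58% ± 0.548 in FL-WT mice, 4.30% ± 0.691 in GC-KO mice and 4.86% ± 0.726 in FL-KO mice (SD, n = 6). Without the 5 small RNAs in the total these shares were 6.18% ± 1.19, 8.85% ± 0.921, 7.76% ± 0.82 and 9.97% ± 1.22 (SD, n = 6). The log2 ratio of S100a8 to S100a9 within a library had means from -0.13 to -0.08 in the 4 groups, and none of its 4 comparisons differed beyond the spread (exact two-sided permutation tests, p from 0.437 to 0.803).

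Other members of the S100 family and of the CC chemokine system were taken as a list of 13 relatives, of which 11 were tested. In it 0 genes were called in each comparison. At an unadjusted p under 0.05, 4 were higher with flight in wild-type mice and 1 was lower with Nrf2 loss in flight, and 0 passed in the other comparisons (limma). By an adjusted p under 0.1, 0.994% of all genes were higher with flight in wild-type mice and 47.2% lower with Nrf2 loss in flight. The most abundant were S100a11, at 604.1 ± 130.1 TPM in GC-WT mice and 792.8 ± 194.7 in FL-WT mice, and S100a6, at 304.7 ± 87.1 and 377.7 ± 73.1 TPM (SD, n = 6). The median of the list was 0.22 with flight in wild-type mice, beside 0.35 for the 10 neutrophil genes and -0.24 for all genes.

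Retnlg and Ccl6 encode secreted proteins. Retnlg belongs to the resistin family, and Ccl6 is a CC chemokine of rodent myeloid cells that acts through CCR1. Retnlg (ENSMUSG00000022651.6, chr16:48872621-48874496) was higher in flight in both genotypes. Its levels were 1357 to 2103 TPM with a median of 1600 in GC-WT mice and 1689 to 2961 with a median of 2747 in FL-WT mice. GC-KO mice had 1299 to 1693 TPM with a median of 1371, and all 6 lay below the FL-KO mice, which had 1823 to 2536 with a median of 1934. The difference was 0.60 with flight in wild-type mice (SE 0.13, adjusted p = 0.00257) and 0.53 with flight in Nrf2-KO mice (SE 0.13, adjusted p = 0.00364). Of all genes, 0.0323% had every FL-KO mouse above every GC-KO mouse. The interaction was -0.07 (SE 0.19, adjusted p = 1, limma). Between genotypes, Retnlg differed by -0.22 on the ground (SE 0.13, adjusted p = 0.206) and by -0.29 in flight (SE 0.13, adjusted p = 0.0893), but by 0.10 and 0.13 with median-of-ratios scaling.

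Ccl6 (ENSMUSG00000018927.3, chr11:83587882-83593087) went from 113.9 to 179.9 TPM with a median of 135.2 in GC-WT mice, and from 146.4 to 238.7 with a median of 213.4 in FL-WT mice. GC-KO mice had 128.2 to 166.8 TPM with a median of 131.1, and FL-KO mice 138.8 to 193.4 with a median of 159.6. Neighbouring groups overlapped throughout. Ccl6 was higher by 0.52 with flight in wild-type mice (SE 0.13, adjusted p = 0.00517). The value with flight in Nrf2-KO mice was 0.24 (SE 0.13, adjusted p = 0.133). Between ground groups it differed by less than 0.01 (adjusted p = 0.993), and with Nrf2 loss in flight by -0.29 (SE 0.13, adjusted p = 0.0748), but by 0.31 and 0.13 with median-of-ratios scaling.

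Csf3r encodes the receptor of G-CSF, the main growth factor of the neutrophil line. It fell in Nrf2-KO mice on the ground and in flight, and its level in FL-KO mice was the lowest of the 4 groups. Csf3r (ENSMUSG00000028859.14, chr4:126024550-126044440) was at 56.1 ± 8.85 TPM in GC-WT mice (lowest 40.8, median 58.6, highest 66.5) and at 44.0 ± 16.9 in FL-WT mice (29.4, 41.2 and 71.4). In GC-KO mice it was at 26.1 ± 11.5 TPM (15.6, 20.8 and 41.3), and in FL-KO mice at 12.8 ± 3.18 (9.07, 12.3 and 18.3; SD, n = 6 for each group). All FL-KO mice lay below all FL-WT mice, whereas GC-KO mouse 12 lay above GC-WT mouse 10. The log2 fold change was -1.16 with Nrf2 loss on the ground (SE 0.23, adjusted p = 0.000575) and -1.66 with Nrf2 loss in flight (SE 0.23, adjusted p = 3.22e-06), or -0.94 and -1.41 relative to all genes. Flown and ground Nrf2-KO mice differed by -0.91 (SE 0.23, adjusted p = 0.00366), just short of 2-fold, and flown and ground wild-type mice by -0.41 (SE 0.23, adjusted p = 0.17). The interaction, -0.50 (SE 0.32), did not pass (adjusted p = 1, limma).

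The GC-KO mice split in Csf3r. Mice 11 and 12 had 39.9 and 41.3 TPM, and the other 4 had 15.6 to 22.5. Without mice 11 and 12 the log2 fold change with Nrf2 loss on the ground was -1.52 (adjusted p = 1.33e-05), and with flight in Nrf2-KO mice it was -0.55 (adjusted p = 0.0801). With median-of-ratios scaling Csf3r differed by -0.85 with Nrf2 loss on the ground (adjusted p = 0.00057), and with trends in GC content and length removed by -0.70 (adjusted p = 0.00203), both short of 2-fold. With Nrf2 loss in flight the call held in all alternatives tried, with -1.27 and -1.08 under the same pair of settings.

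Genes that carry the signal of the G-CSF receptor were counted in a list of 17, of which 16 were tested and Csf3, the gene of G-CSF itself, was listed at 0 in every mouse. The list holds the kinases, STAT factors and adaptors of the receptor and the C/EBP factors of late granulopoiesis. With Nrf2 loss on the ground 1 of 16 was called lower, Stat3, and with Nrf2 loss in flight 8 were, led by Stat3, Ptpn6 and Cebpb. Of all genes, 3.04% and 8.36% were called lower there. Stat3, the main STAT of this receptor, had 15.1 ± 3.02 TPM in GC-WT mice and 3.86 ± 0.438 in FL-KO mice (SD, n = 6), and fell with Nrf2 loss on the ground (-1.10) and in flight (-1.42). Ptpn6, a phosphatase that damps cytokine signals, fell by 1.33 and Cebpb by 1.25 with Nrf2 loss in flight. With flight 0 of 16 were called in either genotype, beside 0.938% and 2.13% of all genes called lower in wild-type and Nrf2-KO mice. At an unadjusted p under 0.05 (limma), 3 were lower in wild-type and 12 in Nrf2-KO mice. By an adjusted p under 0.1, 39% and 53.1% of all genes were lower there. The medians of the list were -0.26 and -0.45, beside -0.24 and -0.29 for all genes. The count with Nrf2 loss in flight was 1 with median-of-ratios scaling (Stat3) and 0 with trends in GC content and length removed.

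Cxcr2 encodes the receptor for the CXC chemokines that release neutrophils from the marrow. Cxcr2 (ENSMUSG00000026180.8, chr1:74153989-74161246) had 39.2 to 50.3 TPM with a median of 47.9 in GC-WT mice and 29.3 to 65.6 with a median of 46.2 in FL-WT mice. GC-KO mice had 31.9 to 51.7 TPM with a median of 35.6, and FL-KO mice 30.3 to 40.8 with a median of 33.9. The groups overlapped, and the FL-WT mice covered both ends, with mice 5 and 6 at 29.3 and 32.7 TPM. It was lower by 0.38 with Nrf2 loss in flight (-0.38, SE 0.16, adjusted p = 0.049), and the other comparisons gave values between -0.28 and -0.04 (adjusted p from 0.169 to 0.856). This difference was 0.02 with median-of-ratios scaling (adjusted p = 0.876).

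Cxcr2 was also set against Cxcr4, the retention receptor, within each library, since such a ratio does not depend on scaling. Cxcr4 exceeded Cxcr2 in all 24 libraries. The log2 ratio of Cxcr2 to Cxcr4 was -1.22 ± 0.05 in GC-WT mice, -0.94 ± 0.14 in FL-WT mice, -0.97 ± 0.15 in GC-KO mice and -0.70 ± 0.17 in FL-KO mice (SD, n = 6). It was higher by 0.28 with flight in wild-type mice (higher in 6 of 6 mice, no overlap, exact permutation test, p = 0.00216, adjusted over 12 tests 0.00866) and by 0.25 with Nrf2 loss on the ground (p = 0.00433, adjusted 0.013). With flight in Nrf2-KO mice it was 0.27 (exact permutation test, p = 0.0238, adjusted 0.0571) and with Nrf2 loss in flight 0.24 (p = 0.0325, adjusted 0.0649), and neither passed the adjusted threshold of 0.05. The mean of Cxcr4 was 109.2 TPM in GC-WT mice, 90.1 in FL-WT mice, 56.4 in FL-KO mice and 75.3 in GC-KO mice. In whole marrow the cells that gave each RNA are not known, so the ratio need not be that of neutrophils. The 9 B progenitor markers had medians of -0.79 and -0.67 with flight in wild-type and Nrf2-KO mice. With Nrf2 loss on the ground and in flight these were -0.70 and -0.45. The part of other cells in the ratio was not tested.

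Of 14 genes of the CXCR2 and CXCR4 axis (ligands, receptors, the G protein subunit Gnai2, receptor kinases and an arrestin), 10 were tested. With flight in Nrf2-KO mice, 1 was called lower, Ppbp, a CXC chemokine of platelets, beside 2.13% of all genes. Ppbp fell by 1.03 on the log2 scale (-1.03, adjusted p = 0.0182). With Nrf2 loss in flight, 3 were called lower, Gnai2 (-1.43), Grk2 (-1.33) and Arrb2 (-1.07), beside 8.36% of all genes. Of these 4 calls Gnai2 alone held with median-of-ratios scaling (-1.02), and 0 with trends in GC content and length removed. 0 were called with flight in wild-type mice and Nrf2 loss on the ground, where 3 and 6 were lower and 1 and 0 higher at an unadjusted p under 0.05 (limma). By an adjusted p under 0.1, 39% and 42.9% of all genes were lower there and 0.994% and 3.13% higher.

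Fpr1 and Fpr2 encode receptors for formylated peptides of bacteria and mitochondria. They are neighbours on chromosome 17, Fpr1 (ENSMUSG00000045551.7, chr17:17876471-17883940) on the minus and Fpr2 (ENSMUSG00000052270.7, chr17:17887824-17893952) on the plus strand, 3883 bp apart. As close relatives they may share reads, which makes their split uncertain. Fpr1 had 31.8 to 42.1 TPM with a median of 40.4 in GC-WT mice, 30.4 to 56.5 with a median of 46.6 in FL-WT mice, 20.2 to 36.2 with a median of 27.6 in GC-KO mice and 23.3 to 31.0 with a median of 28.1 in FL-KO mice. The wild-type groups were the higher ones, with an overlap on the ground and in flight. Fpr1 was lower by 0.49 with Nrf2 loss on the ground (-0.49, SE 0.14, adjusted p = 0.0071) and by 0.67 with Nrf2 loss in flight (-0.67, SE 0.14, adjusted p = 0.000341). Quantile normalization gave -0.25 and -0.31 for these differences, and median-of-ratios scaling -0.18 and -0.27. By the same rule, 42.9% and 47.2% of all genes were lower there. Flight gave values of 0.18 in wild-type mice (adjusted p = 0.316) and of less than 0.01 in Nrf2-KO mice (adjusted p = 0.98).

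Fpr2 was higher in FL-WT mice than in the 3 other groups. It had 59.2 to 83.2 TPM with a median of 77.0 in GC-WT mice and 73.2 to 131.6 with a median of 120.0 in FL-WT mice. GC-KO mice had 55.8 to 95.1 TPM with a median of 67.2, and FL-KO mice 53.2 to 78.1 with a median of 64.2. 4 FL-WT mice lay above all other mice of the study, and mice 5 and 6, at 73.2 and 83.8 TPM, lay among them. The difference was 0.51 with flight in wild-type mice (SE 0.15, adjusted p = 0.0131) and -0.08 with flight in Nrf2-KO mice (SE 0.15, adjusted p = 0.671). Fpr2 was lower by 0.72 with Nrf2 loss in flight (-0.72, SE 0.15, adjusted p = 0.000231), or by 0.32 with median-of-ratios scaling (-0.32, adjusted p = 0.00243), and on the ground the value was -0.14 (SE 0.15, adjusted p = 0.485). The interaction was -0.59 (SE 0.21), the largest in size of the 10 genes, with an unadjusted p of 0.00858 and an adjusted p of 1 (limma). It was -0.49 with median-of-ratios scaling (adjusted p = 0.111) and -0.58 with trends in GC content and length removed (adjusted p = 0.0876). By an adjusted p under 0.1, 0.0162% of all genes had an interaction, and 0 of the 10 did, with 1 at an unadjusted p under 0.05.

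Within a library Fpr2 exceeded Fpr1 in all 24 mice. The log2 ratio of Fpr2 to Fpr1 was 0.93 ± 0.11 in GC-WT mice, 1.26 ± 0.09 in FL-WT mice, 1.28 ± 0.20 in GC-KO mice and 1.20 ± 0.12 in FL-KO mice (SD, n = 6). It was higher by 0.33 with flight in wild-type mice and by 0.36 with Nrf2 loss on the ground, in 6 of 6 mice and with no overlap in each (exact two-sided permutation tests, p = 0.00216, the smallest that 6 against 6 mice allow, adjusted over 12 tests 0.00866). With flight in Nrf2-KO mice the difference was -0.08 (exact permutation test, p = 0.452) and with Nrf2 loss in flight -0.05 (p = 0.405). The difference between these differences was not tested.

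**Figure D3:**
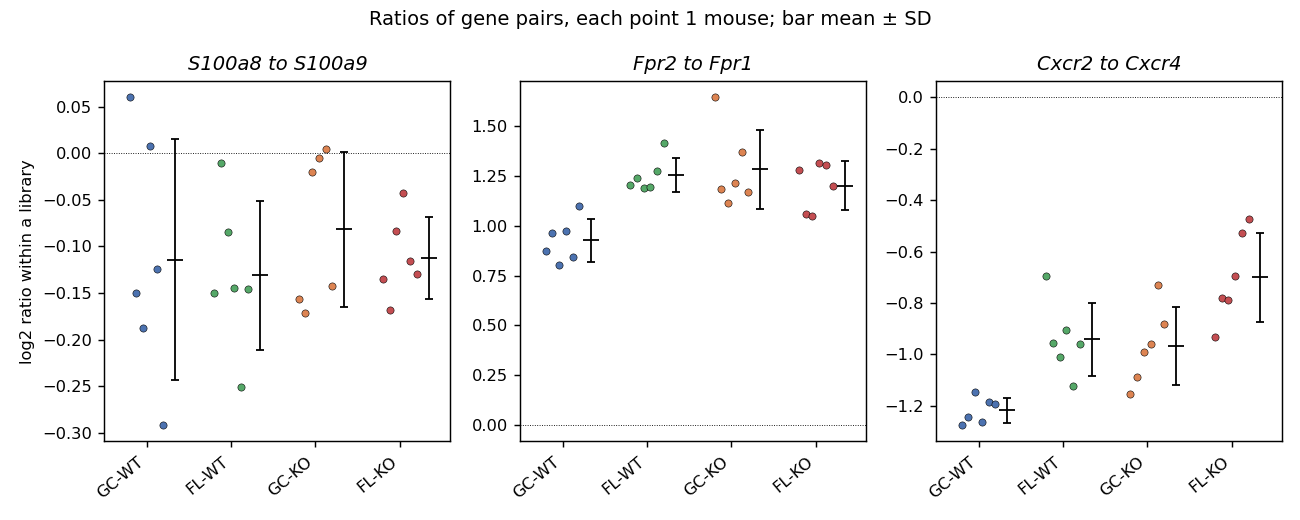
Log2 ratio of 2 genes within a library (y axis, not from 0) for each mouse of the 4 groups, with mean and SD. The ratio of Fpr2 to Fpr1 lies between 0.80 and 1.10 in GC-WT mice and above 1.05 in the 3 other groups, and that of Cxcr2 to Cxcr4 is lowest in GC-WT mice and highest in FL-KO mice.

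Of 12 genes on the path from formyl peptide receptors to movement and the respiratory burst, 3 were called lower with Nrf2 loss on the ground, Prex1 (-1.27), Pik3r5 (-1.04) and Rac2 (-1.01). With Nrf2 loss in flight 6 were, led by Prex1 (-1.76), Rac2 (-1.46) and Gnai2 (-1.43), and with flight in Nrf2-KO mice 1, Prex1. The shares of all genes called lower were, in the same order, 3.04%, 8.36% and 2.13%. PREX1 activates Rac downstream of G proteins and phosphoinositide 3-kinase, and RAC2 is the Rac of blood cells. Rac2 had 125.8 ± 19.2 TPM in GC-WT mice and 40.5 ± 6.75 in FL-KO mice (SD, n = 6). The median of the list was -0.80 with Nrf2 loss on the ground and -1.05 with Nrf2 loss in flight, beside -0.22 and -0.25 for all genes. With trends in GC content and length removed, 0 were called in each, and with median-of-ratios scaling 0 and 3. Among the 12373 tested genes, 45 and 190 were called lower with trends removed and 84 and 409 with scaling.

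Trem1 encodes a receptor that signals through the adaptor DAP12 and amplifies inflammation. Trem1 (ENSMUSG00000042265.13, chr17:48232768-48246924) was the least abundant of the genes and passed no comparison. It had 8.16 to 11.5 TPM with a median of 9.69 in GC-WT mice and 7.74 to 14.5 with a median of 11.2 in FL-WT mice. GC-KO mice had 6.53 to 9.67 TPM with a median of 8.81, and FL-KO mice 6.75 to 12.2 with a median of 9.57. Its log2 fold changes lay between -0.23 and 0.15 (SE 0.14, adjusted p from 0.196 to 0.5). Of 12 genes of TREM1 and DAP12 signalling, Syk and Plcg2 were called lower with Nrf2 loss on the ground (-1.07 and -1.33) and with Nrf2 loss in flight (-1.22 and -1.58). The shares of all genes called lower were 3.04% and 8.36% in these comparisons. With median-of-ratios scaling Plcg2 alone was called in each (-1.04 and -1.23), and with trends in GC content and length removed 0 were. SYK is the kinase that DAP12 recruits, and PLCG2 a phospholipase below it. The medians of the list were -0.52 and -0.49, beside -0.22 and -0.25 for all genes.

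Mxd1 encodes a partner of MAX that competes with MYC and marks cells that leave the cycle. Its order of groups was that of Csf3r. Mxd1 (ENSMUSG00000001156.9, chr6:86647042-86669161) had 51.2 to 75.8 TPM with a median of 70.3 in GC-WT mice and 34.95 to 76.0 with a median of 54.3 in FL-WT mice. GC-KO mice had 37.0 to 58.4 TPM with a median of 42.7, and FL-KO mice 27.5 to 39.4 with a median of 31.3. The ranges of neighbouring groups overlapped. It was lower with Nrf2 loss on the ground (-0.60, SE 0.16, adjusted p = 0.00459), with Nrf2 loss in flight (-0.75, SE 0.16, adjusted p = 0.000456) and with flight in Nrf2-KO mice (-0.47, SE 0.16, adjusted p = 0.024), each short of 2-fold. With median-of-ratios scaling these values were -0.29, -0.34 and -0.08, the last with an adjusted p of 0.673. With trends in GC content and length removed they were -0.17 (adjusted p = 0.246), -0.26 (adjusted p = 0.072) and -0.08 (adjusted p = 0.637). Of 9 other genes of the MAX network, 0 were called with flight in wild-type mice, flight in Nrf2-KO mice and Nrf2 loss on the ground, with 6, 6 and 7 lower and 0 higher at an unadjusted p under 0.05 (limma). By an adjusted p under 0.1, 39%, 53.1% and 42.9% of all genes were lower in these comparisons. With Nrf2 loss in flight, Myc (-1.14) and Mnt (-1.10) were called lower, as were 8.36% of all genes. With median-of-ratios scaling or with trends in GC content and length removed, 0 of the 9 were called lower there.

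Some other neutrophil genes fell by more than Csf3r. A list of 25 other late neutrophil genes had 6 called lower with Nrf2 loss on the ground and 9 with Nrf2 loss in flight. The shares of all genes called lower there were 3.04% and 8.36%. Mmp9, the gelatinase of tertiary granules, had 150.8 ± 40.1 TPM in GC-WT mice, 140.7 ± 80.2 in FL-WT mice, 44.0 ± 27.9 in GC-KO mice and 16.8 ± 5.12 in FL-KO mice (SD, n = 6). On the log2 scale it fell by 1.92 and 2.85 with Nrf2 loss on the ground and in flight. With flight in Nrf2-KO mice it fell by 1.17. Every Nrf2-KO mouse lay below every wild-type mouse within each condition. On the ground the groups all but met, at 84.74 TPM (highest GC-KO) and 84.75 TPM (lowest GC-WT). Of all genes, 9.15% on the ground and 20.6% in flight were lower without overlap. C5ar1, the receptor for complement C5a, fell in the same comparisons of genotype (-1.47 and -2.15), and Itgb2, the β2 integrin chain of leukocytes, fell by 1.37 on the ground. Cd177, a surface protein of a share of neutrophils, fell by 1.85 with Nrf2 loss in flight. With flight in wild-type mice 0 of the 25 were called, and 5 were higher and 0 lower at an adjusted p under 0.1. Of all genes, 0.938% were called lower and 0.0647% higher there, and 0.994% were higher and 39% lower at an adjusted p under 0.1. The medians were -0.29 with Nrf2 loss on the ground and -0.55 with Nrf2 loss in flight, against -0.21 and -0.34 for the 10 genes. After median-of-ratios scaling 4 and 8 of the 25 were called lower, and 2 and 8 with trends in GC content and length removed. Among the 12373 tested genes, 84 and 409 were called lower after scaling and 45 and 190 with trends removed. Mmp9 and C5ar1 were called lower in both comparisons under both settings, whereas Mmp9 with flight in Nrf2-KO mice was short of 2-fold under both (-0.79 and -0.75).

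Single markers of earlier neutrophil stages and of monocytes were called lower too. Of all genes, 3.04% and 8.36% were called lower with Nrf2 loss on the ground and in flight. With flight in Nrf2-KO mice 2.13% were. In the 5 genes of primary granules, Mpo was called lower with Nrf2 loss on the ground (-1.72), Nrf2 loss in flight (-2.39) and flight in Nrf2-KO mice (-1.06), and of 6 genes of secondary granules, Ltf was (-1.62 and -2.33). The summed level of the secondary granule list ran from 7873 to 10626 TPM in GC-WT mice, 7617 to 14403 in FL-WT mice, 5709 to 9290 in GC-KO mice and 5540 to 7796 in FL-KO mice. Of 10 markers of monocytes and macrophages, Csf1r was called lower on the ground (-1.24) and Csf1r (-1.74), Cx3cr1 (-1.03) and Cd68 (-1.01) in flight. Their sum ran from 460.9 to 632.9 TPM in GC-WT, 413.2 to 752.8 in FL-WT, 344.3 to 571.2 in GC-KO and 310.8 to 445.6 in FL-KO mice, with 0 of the 10 at 0 in any group. Sums over erythroid markers ran from 50823 to 148478 TPM over the 24 libraries. Under median-of-ratios scaling and with trends in GC content and length removed, Mpo and Ltf were called in both comparisons of genotype and Csf1r in flight. The calls of Mpo with flight in Nrf2-KO mice, Csf1r on the ground and Cx3cr1 and Cd68 in flight were lost under both settings. The list medians with Nrf2 loss on the ground and in flight were -0.32 and -0.37 for primary and -0.70 and -0.93 for secondary granules. For monocytes and macrophages they were -0.25 and -0.54, beside -0.22 and -0.25 for all genes. The highest values in these lists with Nrf2 loss on the ground were 0.19, 0.19 and 0.11. The part of earlier neutrophil stages and monocytes in the levels of the 10 genes was not tested.

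Marker genes of other blood lineages were measured in the same libraries. Of 8 erythroid markers, 3 were called lower with flight in wild-type mice and 4 with flight in Nrf2-KO mice, among them Slc4a1 (-1.15 and -1.78), Epb42 (-1.15 and -1.19) and Tfrc (-1.04 in FL-WT mice), while Klf1 (-1.50) was in FL-KO mice. Slc4a1 and Klf1 were also called lower with Nrf2 loss in flight (-1.06 and -1.02). The globin genes, the most abundant of the list, were not called, with Hba-a1 at 0.03 and -0.13 and Hbb-bs at 0.23 and less than 0.01 in size with flight in wild-type and Nrf2-KO mice (adjusted p from 0.308 to 1, limma). Of the erythroid calls, Slc4a1 and Klf1 with flight in Nrf2-KO mice held both with median-of-ratios scaling and with trends in GC content and length removed, and 0 others did under either. Of 9 B progenitor markers Rag1 was called lower with flight in wild-type mice (-1.16) and Nrf2 loss on the ground (-1.05), and Cd79a with Nrf2 loss in flight (-1.12). Of 7 megakaryocyte markers Gp1bb (-1.05) and Ppbp were called lower with flight in Nrf2-KO mice. Epx, of 8 eosinophil and basophil markers, and Cd3e, of 8 T and NK cell markers, were called lower with Nrf2 loss in flight (-1.22 and -1.05), as was Elane (-1.05) of the primary and Lcn2 (-1.13) of the secondary granules. None of these calls of B progenitor, megakaryocyte, eosinophil and basophil, T and NK cell markers, Elane and Lcn2 held with median-of-ratios scaling or with trends in GC content and length removed. Stem and progenitor markers, 5 of 8 tested, had 0 called, and the highest of their sums was 22.4 TPM. With flight in wild-type and Nrf2-KO mice 2 and 2 were lower at an unadjusted p under 0.05 (limma). With Nrf2 loss on the ground and in flight 4 and 4 were. By an adjusted p under 0.1, 39%, 53.1%, 42.9% and 47.2% of all genes were lower in these 4 comparisons. Called lower by both thresholds were, in the same order, 0.938%, 2.13%, 3.04% and 8.36% of all genes. In the 17 lists 0 genes were called higher. Few of all genes were, with 0.0647% and 0% for flight in wild-type and Nrf2-KO mice. For Nrf2 loss on the ground and in flight these shares were 0.129% and 0.097%.

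Over the 10 genes, the median log2 fold change was 0.35 with flight in wild-type mice, 0.06 with flight in Nrf2-KO mice, -0.21 with Nrf2 loss on the ground and -0.34 with Nrf2 loss in flight. Relative to the median of all genes these were 0.59, 0.35, 0.01 and -0.09. Within the set the change followed transcript length. The 3 genes with the shortest transcripts, S100a8, S100a9 and Retnlg (498, 519 and 593 nt), had the highest values with flight in wild-type mice, and Csf3r and Mxd1 (3481 and 4666 nt) the lowest in all 4 comparisons. Spearman's rho of change with length was -0.90, -0.72, -0.79 and -0.73 over the 10 genes in the 4 comparisons, in the order above, and -0.39, -0.29, -0.33 and -0.24 over 10419 genes. These are correlations across genes, which share libraries and are not independent replicates. With GC content of the transcript, which ran from 44.1% in Fpr2 to 54.2% in Csf3r, rho was between -0.82 and -0.41. The part of length and GC content in the differences was not tested beyond the setting that removes their trends.

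**Figure D4:**
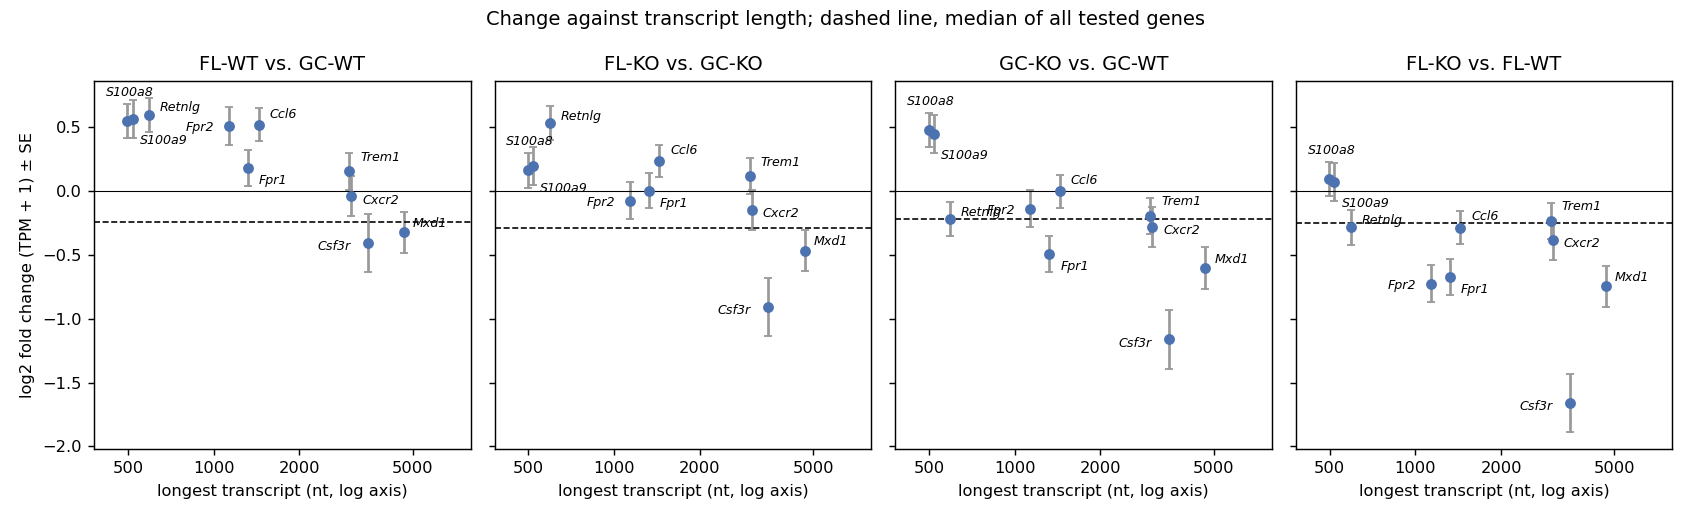
Log2 fold change with its standard error (y axis) against the length of the longest transcript of each gene in nt (x axis, log scale), for the 4 comparisons, with the median of all tested genes dashed. The genes of 498 to 593 nt lie above the dashed line in FL-WT vs. GC-WT and Csf3r, at 3481 nt, lies below it in each comparison.

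The direction of several genes depended on the scale. With median-of-ratios scaling 8 of the 10 genes were higher at an adjusted p under 0.1 with flight in wild-type mice and 8 with flight in Nrf2-KO mice, against 13.6% and 14.4% of all genes, where TPM as deposited gave 5 and 1. Lower were 0 and 1, against 20% and 24.4%, where TPM as deposited gave 0 and 2. The 8 were all but Csf3r and Mxd1 in both genotypes. Retnlg then differed by 0.90 and 0.93 (adjusted p = 6e-06 and 2.72e-06), Fpr2 by 0.81 and 0.31 and S100a8 by 0.85 and 0.56. Without overlap between mice were 4 genes with flight in wild-type mice (Retnlg, Ccl6, Fpr1 and Fpr2, background 2.05%) and 6 with flight in Nrf2-KO mice (these and S100a8 and S100a9, background 4.29%). S100a8 was higher without overlap with Nrf2 loss on the ground (2.93%), and Csf3r and Fpr2 lower with Nrf2 loss in flight (18.5%). None of the 10 was lower without overlap with flight in wild-type or Nrf2-KO mice (4% and 8.62%) or with Nrf2 loss on the ground (4.36%), or higher with Nrf2 loss in flight (9.49%). With trends in GC content and length removed, 7 and 5 genes were higher and 0 and 1 lower, against 16.1% and 15.1% of all genes higher and 15.8% and 17.7% lower. Nrf2 loss then gave 2 higher and 4 lower on the ground (24.3% and 22%) and 0 higher and 6 lower in flight (27.7% and 25.2%). Without the 5 small RNAs in the total 5 and 4 were higher, against 1.53% and 1.43%. With Nrf2 loss on the ground, median-of-ratios scaling gave 4 higher and 3 lower (background 26.5% and 30.6%) and TPM as deposited 2 and 3. With Nrf2 loss in flight it gave 2 higher and 4 lower (32.7% and 32.3%) in place of 0 and 7.

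**Figure D5:**
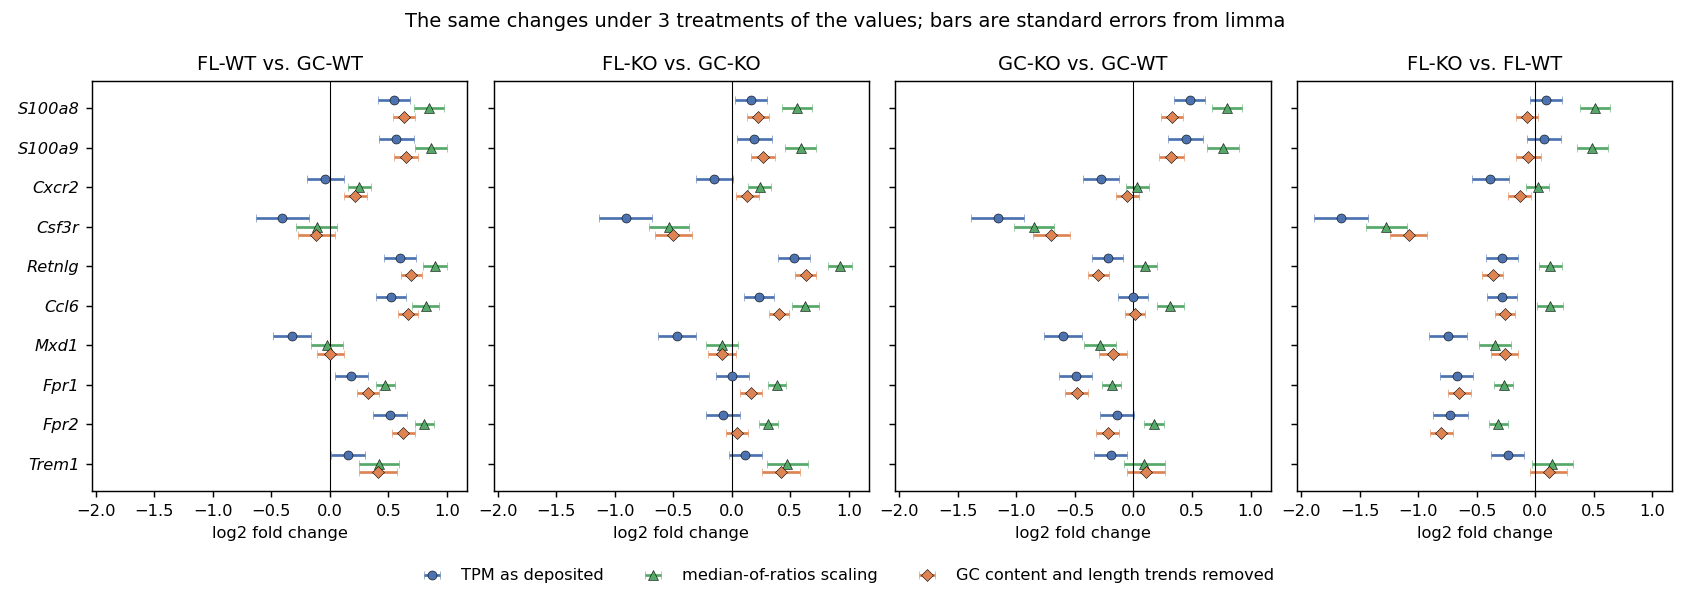
Log2 fold changes of the 10 genes (x axis) with standard errors from limma, for TPM as deposited, after median-of-ratios scaling and with trends in GC content and length removed. Retnlg stays above 0.5 in both comparisons of flight with ground under the 3 treatments, and Csf3r below -1 in FL-KO vs. FL-WT.

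The 10 genes fell into groups by how their levels ran together over the 24 mice. Pearson's r of log2(TPM + 1) was 0.97 for S100a8 and S100a9, 0.93 for Csf3r and Mxd1, 0.91 for Retnlg and Ccl6 and 0.87 for Fpr1 and Fpr2. It was -0.50 for S100a8 and Mxd1 and -0.44 for S100a8 and Csf3r. With median-of-ratios scaling the 4 pairs had 0.99, 0.71, 0.95 and 0.82, and S100a8 and Csf3r -0.71. These values include the differences between groups and whatever the libraries share, and are descriptions. The genes outside the set with the most similar profile to the mean of the 10, among 5015 with at least 5 TPM, were Glipr2 (r = 0.93), Sqor (0.91), Ly6g (0.91), Alox5ap (0.90), Cd300lb (0.90), Emb (0.90), Prdx5 (0.89) and I830127L07Rik (0.89). Ly6g is the surface protein by which mouse neutrophils are commonly sorted, and ALOX5AP serves leukotriene synthesis. Of these 8, 5 were again among the 8 most similar after scaling (Alox5ap, Emb, Glipr2, I830127L07Rik and Sqor), with Msrb1, Actr3 and Tm6sf1 in place of the others. Ly6g had 76.3 ± 13.8 TPM in GC-WT mice, 96.9 ± 22.6 in FL-WT mice, 68.8 ± 12.1 in GC-KO mice and 70.5 ± 8.36 in FL-KO mice (SD, n = 6).

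Leaving out FL-WT mice 5 and 6 raised the differences of flight in wild-type mice to 0.80 for Retnlg (adjusted p = 0.000854), 0.73 for Fpr2 (adjusted p = 0.00176), 0.69 for Ccl6 and S100a9 and 0.63 for S100a8, and brought Fpr1 to 0.38 (adjusted p = 0.0749). With Nrf2 loss in flight it gave -1.90 for Csf3r, -0.99 for Mxd1, -0.94 for Fpr2 and -0.87 for Fpr1. Csf3r remained the single gene called. Leaving out GC-KO mice 11 and 12 gave 0.60 for Retnlg with flight in Nrf2-KO mice (adjusted p = 0.00969) and -0.34 for Mxd1 (adjusted p = 0.194).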

How the data were processed

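RNA of bone marrow from 24 mice was measured in 1 library each, grouped by the labels. The authors isolated RNA from cryopreserved cells, made libraries with a directional kit, mapped reads to mm10 with STAR 2.6.1 and deposited TPM from RSEM 1.3.1. The annotation release is not given in the sources used here. Of the 54752 deposited IDs, 54723 matched GENCODE M21 (GRCm38) without version, the source of coordinates, lengths and GC content. TPM keeps no depth, so counting error is unknown.

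Genes with TPM above 1 in at least 1 library were fitted as log2(TPM + 1) with limma 3.58.1 (R 4.3.3) and adjusted by Benjamini-Hochberg. Ratios were tested by exact permutation over 924 splits (scipy 1.17.1). Text names the 10 genes, up to 3 called genes per list and comparison (else the 2 most abundant), the 8 most similar genes and Nfe2l2. Genes and lists were chosen with earlier results of these data known. The fit was tested on simulated data. Alternatives are described under the dependence on processing.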

Additional observations from a re-analysis of the deposited data

Results flagged for a closer look

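Of 52 groups of 6 mice (levels and ratios), 6 had a mouse set apart from its group by Dixon's criterion, which chance alone gives in about 1 of 20 groups. GC-WT mouse 10 had the highest S100a9 level of its group, 25478 TPM against 16435 for the next mouse, and the lowest Mxd1 level, 51.2 TPM against 68.0. GC-KO mouse 11 stood above its group in Retnlg (1693 TPM, next 1402), Ccl6 (166.8 TPM, next 142.3) and Fpr2 (95.1 TPM, next 69.7). This mouse also had the lowest share of the 5 small RNAs of all libraries, 35.4% of TPM. FL-WT mouse 10 had the highest log2 ratio of Fpr2 to Fpr1 of its group, 1.42 against 1.28. The part of library composition in these values was not tested.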

How the results depend on the processing

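The alternatives were another pseudocount (0.1), no filter, a stricter filter (TPM above 1 in 6 libraries or more), quantile normalization, median-of-ratios scaling, totals without the 5 small RNAs, removal of trends in GC content and length, limma's mean-expression trend, the compared groups alone, an adjusted p of 0.05, no minimum fold, leaving out single libraries and a replicate block. Leaving out GC-KO mice 11 and 12 or FL-WT mice 5 and 6 was added after seeing the data. Of 440 values of single genes, 406 kept their direction. Settings that left out libraries, mice or the 5 small RNAs are not among the 440. The filters, thresholds, mean-expression trend, compared groups alone and the replicate block by itself return the same log2 fold change. Under these a direction could not change, so the count overstates how stable the directions were. The cause of the changes below was not tested.

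Csf3r was called lower with Nrf2 loss in flight under every alternative (log2 fold change -1.90 to -1.08). With Nrf2 loss on the ground the count of genes called fell from 1 to 0 with median-of-ratios scaling, quantile normalization and trends removed. With flight in Nrf2-KO mice it was 0 to 1 with 1 library left out, the 1 being Csf3r without FL-KO mouse 11 or GC-KO mouse 4. With no minimum fold, 5 genes were higher with flight in wild-type mice, 2 lower and 1 higher with flight in Nrf2-KO mice, 3 lower and 2 higher with Nrf2 loss on the ground and 7 lower in flight.

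The median of the 10 genes relative to all genes, 0.589 with flight in wild-type mice, was 0.392 with no filter and 0.304 with quantile normalization. With flight in Nrf2-KO mice, 0.348 became 0.49 with a pseudocount of 0.1, 0.118 with no filter, 0.179 with quantile normalization and 0.183 with trends removed. With Nrf2 loss on the ground, 0.0128 became -0.194 with no filter and -0.136 with trends removed, and in flight -0.0851 became -0.325, -0.291 and, with median-of-ratios scaling, 0.0496.

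Several small differences changed sign. With median-of-ratios scaling Cxcr2 was at 0.25 and 0.24 with flight in wild-type and Nrf2-KO mice and at 0.033 and 0.020 with Nrf2 loss on the ground and in flight. Fpr2 was at 0.31 with flight in Nrf2-KO mice and 0.18 with Nrf2 loss on the ground. Ccl6 was at 0.31 and 0.13, Retnlg at 0.10 and 0.13 and Trem1 at 0.091 and 0.15 with Nrf2 loss on the ground and in flight. Quantile normalization gave Cxcr2 0.14 and 0.18 with flight in the 2 genotypes, Fpr2 0.24 with flight in Nrf2-KO mice and 0.035 with Nrf2 loss on the ground, Trem1 0.15 and 0.21 with Nrf2 loss, Ccl6 0.061 and S100a8 -0.074 on the ground and S100a9 -0.070 in flight. With trends removed, Cxcr2 was at 0.22 and 0.13 and Mxd1 at 0.0034 (wild-type) with flight, Fpr2 at 0.045 with flight in Nrf2-KO mice, Ccl6 at 0.013 and Trem1 at 0.10 with Nrf2 loss on the ground, and Trem1 at 0.11, S100a8 at -0.072 and S100a9 at -0.060 in flight. Without the 5 small RNAs Cxcr2 and Fpr2 were at 0.030 and 0.10 with flight in Nrf2-KO mice. Without GC-KO mice 11 and 12 they were at 0.010 and 0.055, and without FL-WT mice 5 and 6 Cxcr2 was at 0.22 with flight in wild-type mice and S100a9 at -0.047 with Nrf2 loss in flight.

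Left-out libraries turned the sign of Cxcr2 with flight in wild-type mice (-0.148 to 0.079), Fpr1 (-0.078 to 0.085) and Fpr2 (-0.132 to 0.021) with flight in Nrf2-KO mice and Ccl6 with Nrf2 loss on the ground (-0.057 to 0.074). The log2 ratio of S100a8 to S100a9 ranged from -0.052 to 0.018 with flight in wild-type mice, from -0.0031 to 0.067 with Nrf2 loss on the ground and from -0.0053 to 0.043 in flight. That of Cxcr2 to Cxcr4 ranged from 0.222 to 0.315 with flight in Nrf2-KO mice, passing without GC-KO mouse 11 or FL-KO mouse 1, and from 0.197 to 0.291 with Nrf2 loss in flight, passing without FL-WT mouse 3 or FL-KO mouse 1.

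The labels do not say whether flown and ground mice of the same number form pairs, and the main fit did not pair them. Of 12 same-numbered pairs, 7 had deviations correlated above 0.1 (lowest -0.0265, highest 0.273). In 8 of 24 libraries the best correlation was with the library of the same number. Some shared structure therefore remains possible. With a replicate block the genes called with flight were 118 lower and 10 higher in wild-type mice (116 and 8 without it) and 265 lower in Nrf2-KO mice (264 without it), and Csf3r was at -0.91. Among all genes, calls with Nrf2 loss in flight were 1034 lower without and 409 with median-of-ratios scaling, 309 with quantile normalization, 190 with trends removed and 1984 with a pseudocount of 0.1.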

Other observations

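Cxcr1, a chemokine receptor gene related to Cxcr2, was singled out after its values were seen. It had 0.23 to 0.88 TPM in GC-WT mice and 0.38 to 1.09 TPM in FL-WT mice, and was listed at 0 to 0.03 TPM in GC-KO mice and 0 to 0.05 TPM in FL-KO mice. Every Nrf2-KO mouse lay below every wild-type mouse in both conditions. The same held for 9.15% of all tested genes on the ground and 20.6% in flight. On the log2(TPM + 1) scale the differences between genotypes, -0.60 on the ground and -0.66 in flight, understate the change at this level. Cxcr1 passed the filter of more than 1 TPM only through FL-WT mice, where it was highest. For this reason, and because of how it was picked, no p is given for it. Cxcr2, at 30.3 TPM or more in every FL-KO mouse, did not show such a step.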
